A study of Homo sapiens and Rattus norvegicus with 26 samples.

Results

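The comparison of hCECs with hECs under high shear rests on 6 of the 26 libraries of the series, 3 of hCECs and 3 of hECs, all from cultures that received 12 dyne/cm2 for 72 h in a microfluidic chip. The libraries were taken by their labels, as the high-shear columns of the 2 cell models, and the comparison was set at high shear because all of its libraries are of full size. Both models were differentiated from IMR90-4, an established human induced pluripotent stem cell line, through the same endothelial progenitors, which were enriched by magnetic sorting for CD34 or CD31. hCECs then received CHIR99021, an inhibitor of the kinase GSK3, during expansion and in the chip medium, whereas hECs received its solvent DMSO, and both groups were kept in FGF2 and VEGF. The inhibitor had also been part of the earlier step that made the progenitors, so both groups had met it before. The libraries of a group come from separate differentiations, at different passages, of 1 iPSC line, and p-values therefore measure the spread between differentiations of that line and not between donors. The methods of the study name smooth muscle-like cells as a possible by-product of this differentiation, of which few were seen in these cultures. They attribute this to passaging and, in hCECs, also to the added CHIR99021, which is the variable compared here.

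GSK3 is part of the complex that marks β-catenin, the transducer of the canonical Wnt pathway, for destruction. When the kinase is inhibited, β-catenin accumulates and acts with transcription factors of the TCF/LEF family, and among the genes it turns on are feedback regulators of the pathway itself. In the developing brain, Wnt ligands from neural cells act on endothelial cells in this way, and the pathway is known for inducing the glucose transporter of the blood-brain barrier (BBB) and for lowering the fenestra protein PLVAP. The comparison asks how the state of endothelial cells under high shear differs between cultures kept with the inhibitor and with its solvent. Effects through this pathway and other effects of the inhibitor cannot be told apart in it.

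Library totals were 28225504 to 32225360 counts in hCECs and 27512887 to 47006272 counts in hECs, and 20072 to 20519 genes in hCECs and 20633 to 21668 genes in hECs had at least 1 count. Of 43382 genes with values, 15184 were tested. Levels are given as CPM, the counts of a gene per 1e6 counts of its library, normalized by TMM, differences are log2 fold changes of hCECs over hECs with their standard error (SE), and calls were made below a threshold of 0.05 on the adjusted p of edgeR's quasi-likelihood test. In hCECs, 2305 genes were higher and 2320 lower, which is 15.2% and 15.3% of the genes tested. With a change of over 2-fold as a further condition, 525 genes were higher (3.46%) and 1135 lower (7.47%). Scaling by library totals in place of TMM shifted the median of all genes to -0.09 and turned the counts to 1651 higher and 2913 lower. Counts of members below are read against these shares, 30.5% in either direction. In this comparison the levels of 47.4% of all genes did not overlap between the groups.

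The endothelial label held in both groups. *PECAM1*, the adhesion molecule CD31, had 2040.3, 1842 and 2379 CPM in hCEC libraries, against 2089, 1757 and 1915 CPM in hEC libraries. *CDH5*, which encodes VE-cadherin, had 2667, 2526 and 2719 CPM in hCEC libraries, against 3157, 3113 and 2377 CPM in hEC libraries. The groups overlapped for both genes, with log2 fold changes of 0.12 ± 0.12 and -0.13 ± 0.12 and adjusted p of 0.475 and 0.46, although *CDH5* passed at 0.046 and lower in hCECs when hEC replicate 3, the lowest of its group, was left out. All 25 genes of a pan-endothelial list were tested, and 4 were higher and 4 lower in hCECs, with a median of 0.15. Without hCEC replicate 1 or hEC replicate 1 the higher count was 2, and without hEC replicate 3 the lower count was 6. Among the members that moved, *VWF*, which encodes the clotting protein von Willebrand factor, was higher (1.65 ± 0.21, adjusted p = 0.00111), as was *ENG*, a coreceptor of the BMP family (0.65 ± 0.11, 0.00404). *CD34*, the surface marker of progenitors and capillaries, averaged 1098 ± 176 CPM in hCECs, against 2234 ± 170.0 CPM in hECs (SD, n = 3 each), and its log2 fold change was -1.02 ± 0.13. The sialomucin gene *EMCN* (-2.03 ± 0.23) and the transcription factor gene *ETS1* (-0.97 ± 0.09) were lower in hCECs as well. Values of these 5 genes did not overlap between the groups.

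Markers of other cell types were also measured, and some differed between the groups. Of 12 smooth muscle and mural markers tested, 2 were higher and 5 lower in hCECs, and the summed level of the 19 listed genes was 1612 to 1867 CPM in hCECs and 1211 to 1557 CPM in hECs. In hCECs most of that sum came from *SMTN*, which was higher in hCECs (0.87 ± 0.11) and whose product smoothelin is not limited to smooth muscle, while *CNN1*, *DES* and *LMOD1* were under 1 CPM in every library. *PDGFRB*, the receptor that defines mural cells, had 0.128, 0.322 and 0.104 CPM in hCEC libraries, against 2.50, 10.5 and 6.65 CPM in hEC libraries. *ABCC9*, a channel subunit known from pericytes, was called higher (adjusted p = 0.00137), with 1.44, 0.715 and 0.622 CPM in hCEC libraries, against 0, 0.0206 and 0 CPM in hEC libraries, which is 83 counts in all against 1. *TPM2*, a tropomyosin, was lower (-2.39 ± 0.18), and so was the myosin light chain gene *MYL9* (-1.40 ± 0.19). Of 15 fibroblast markers tested, 2 were higher and 8 lower, with summed levels over 18 genes of 634 to 654 CPM in hCECs and 1029 to 1831 CPM in hECs. Here *COL1A1*, the main collagen of fibroblasts, had 1.47, 9.83 and 5.42 CPM in hCEC libraries, against 89.2, 411 and 213 CPM in hEC libraries, and the highest hEC library was replicate 2. The groups did not overlap for any of these 5 genes. *CDH11*, a cadherin of mesenchymal cells, went the other way (1.96 ± 0.33, 0.00347). Epithelial markers summed to 49.8 to 75.3 CPM in hCECs and 99.5 to 168 CPM in hECs over 15 genes, pluripotency markers to 40.9 to 46.3 CPM in hCECs and 75.3 to 109 CPM in hECs over 10, and blood cell markers to 19.7 to 30.04 CPM in hCECs and 14.4 to 29.96 CPM in hECs over 17, with the keratin gene *KRT8* (-3.09 ± 0.47) and the stem cell genes *L1TD1* (-3.60 ± 0.38) and *DNMT3B* (-1.61 ± 0.15) lower in hCECs. Of 5 epithelial markers tested, 4 were lower, and 2 to 4 were lower when single libraries were left out. The keratin gene *KRT18* overlapped between the groups and was not called (-0.28 ± 0.17, adjusted p = 0.262). Of 6 pluripotency markers tested, 1 was higher, 2 were lower and 3 were not called. The higher one was under 1 CPM in every library and was not called without hCEC replicate 2 or 3 or hEC replicate 1 or 2. Among those not called was *NANOG*, with 7.54, 9.44 and 13.2 CPM in hCEC libraries, against 5.97, 6.25 and 11.9 CPM in hEC libraries (adjusted p = 0.473). *L1TD1* averaged 2.64 CPM in hCECs and 32.2 CPM in hECs, and *DNMT3B* 7.91 CPM in hCECs and 24.1 CPM in hECs. In these bulk libraries, fewer cells of a type and less RNA per cell cannot be told apart. The part of these cells in the differences described below was not tested.

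Feedback genes of the Wnt pathway were the first group examined, since they report its activity. Of 22 listed, 15 were measured well enough to be tested, and 7 were higher and 3 lower in hCECs, against 15.2% and 15.3% of all genes. The list's median log2 fold change was only 0.10, beside a median of -0.00 for all genes tested. *AXIN2*, a scaffold of the β-catenin destruction complex and the most widely used reporter gene of the pathway, had 93.6, 97.1 and 97.9 CPM in hCEC libraries, against 8.90, 10.97 and 6.47 CPM in hEC libraries. *APCDD1*, an inhibitor at the membrane that brain endothelium is known to express, had 199, 208 and 119 CPM in hCEC libraries, against 7.83, 8.19 and 7.13 CPM in hEC libraries. Every hCEC library lay above every hEC library for both genes, with log2 fold changes of 3.45 ± 0.17 and 4.50 ± 0.23 and an adjusted p of 4.5e-05 and 4.5e-05.

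The transcription factor gene *LEF1*, a partner of β-catenin, had 57.3, 68.7 and 56.4 CPM in hCEC libraries, against 13.5, 15.4 and 27.9 CPM in hEC libraries. *NKD1*, which encodes an antagonist of Dishevelled, had 2.75, 2.32 and 4.42 CPM in hCEC libraries, against 0, 0.186 and 0.201 CPM in hEC libraries. *ZNRF3*, a ligase that removes Frizzled receptors, had 15.9, 13.7 and 13.2 CPM in hCEC libraries, against 7.33, 6.58 and 6.10 CPM in hEC libraries. All 3 were higher in hCECs without overlap, by 1.68 ± 0.25, 4.47 ± 0.63 and 1.10 ± 0.14 on the log2 scale and with adjusted p of 0.0023, 0.0017 and 0.00126. *TCF7* (1.22), which encodes the factor TCF1, and *TNFRSF19* (1.22), a receptor of the TNF family, passed with all 6 libraries and less firmly. *TCF7* lost its call when any library except hEC replicate 3 was left out (adjusted p from 0.01 to 0.137), and *TNFRSF19* without hCEC replicates 1 or 2 or hEC replicate 1 (0.00723 to 0.062).

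Other genes known as targets in other tissues did not move in that direction. *MYC* had 13.4, 21.2 and 13.96 CPM in hCEC libraries, against 10.4, 15.9 and 18.99 CPM in hEC libraries. *CCND1*, which encodes cyclin D1, had 178, 113 and 198 CPM in hCEC libraries, against 265, 166 and 492 CPM in hEC libraries. The groups overlapped for both, with adjusted p of 0.804 and 0.0994. However, *CCND1* was called lower without hEC replicate 2 (0.029) and with the replicate number as a block (0.00681). It was lower in hCECs in each of the 3 comparisons of libraries with the same number. *DKK1*, *BAMBI* and *NKD2* were not called either (log2 fold changes -1.06, -0.35 and -0.16). The limb and heart factor *TBX3* (-0.96), the hyaluronan receptor *CD44* (-1.30) and the receptor gene *FZD7* (-2.63) were lower in hCECs. *TBX3* lost its call without hCEC replicate 1 (0.054), and *CD44*, whose groups overlapped, when any library except hEC replicate 3 was left out (0.00018 to 0.149), so that 1 of the 3 remained without hCEC replicate 1. A further 7 listed targets, *SP5*, *NOTUM*, *RNF43*, *LGR5*, *WIF1*, *ASCL2* and *SP8*, were under 1 CPM in all 6 libraries and were not tested.

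**Figure D1:**
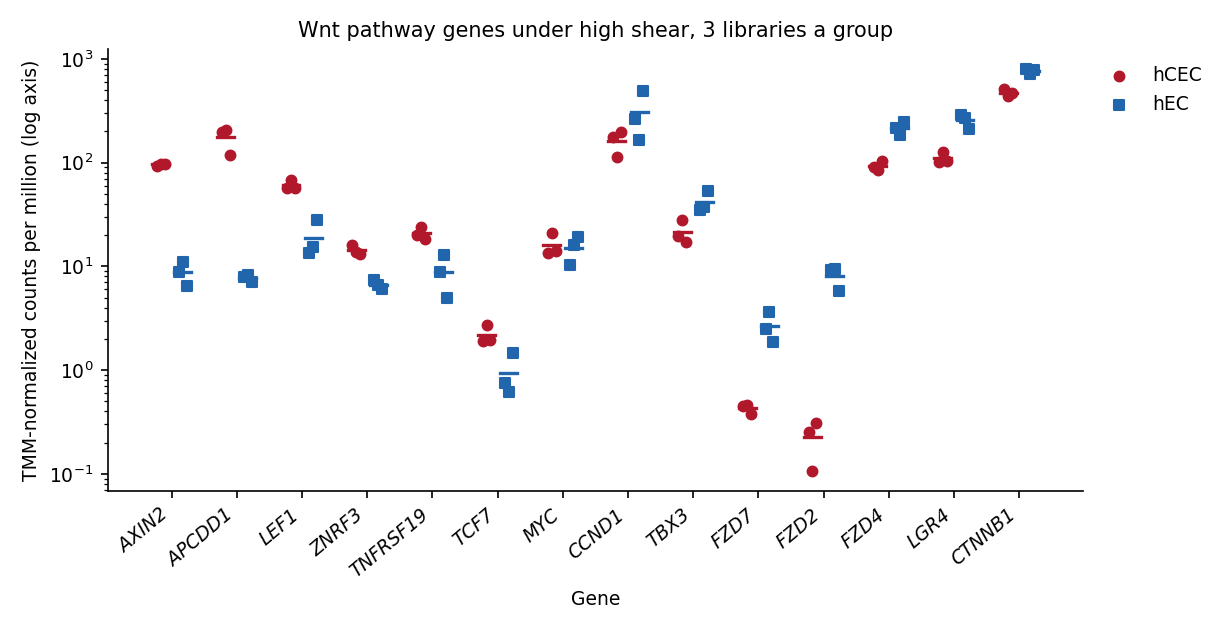
Levels of 14 Wnt pathway genes in the 3 hCEC libraries (red circles) and the 3 hEC libraries (blue squares) under high shear, in TMM-normalized CPM on a log axis, with the group mean as a bar. *AXIN2* and *APCDD1* are higher in every hCEC library than in any hEC library, and *MYC* and *CCND1* overlap between the groups. The receptor genes *FZD7*, *FZD2*, *FZD4* and *LGR4*, and *CTNNB1*, are lower in hCECs. Wnt receptors called higher, 4 of 19 tested, are not shown.

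Receptors of the pathway were more often lower. Of 19 tested receptors and coreceptors, 4 were higher and 7 lower, although leaving out hCEC replicate 2 left 2 higher. *FZD2* had 0.256, 0.107 and 0.311 CPM in hCEC libraries, against 9.15, 9.36 and 5.81 CPM in hEC libraries. *FZD4*, the receptor that carries Norrin and Wnt7 signals in brain endothelium, had 89.8, 84.8 and 104 CPM in hCEC libraries, against 215, 186 and 244 CPM in hEC libraries. *LGR4*, a receptor of R-spondins, had 100.9, 127 and 104 CPM in hCEC libraries, against 287, 267 and 210.1 CPM in hEC libraries. These 3 were lower in hCECs without overlap (-5.14 ± 0.38, -1.21 ± 0.12 and -1.21 ± 0.14). *ROR2*, a receptor of noncanonical Wnt ligands, was higher (3.71 ± 0.46, 0.00097), as was *FZD8* (0.70 ± 0.13, 0.00611). Of the transducers inside the cell, 3 of 19 tested were higher and 1 lower, with 5 higher without hEC replicate 2 and 3 lower without hCEC replicate 3 or hEC replicate 3. *CTNNB1*, the gene of β-catenin, was the lower one, with 510.0, 436 and 472 CPM in hCEC libraries, against 794, 715 and 778 CPM in hEC libraries and a log2 fold change of -0.69 ± 0.09 (0.00114). The target of the inhibitor was slightly higher at both genes, *GSK3A* with 0.33 and *GSK3B* with 0.31, and so was *AXIN1* (0.50). *GSK3B* lost its call without hCEC replicate 1 (0.061). Among ligands, 5 of 24 were tested, and *WNT5A* was the one called, higher in hCECs with 1.17, but not without hCEC replicate 1 or 2 (0.0138 to 0.0655). Both *GSK3* genes and *AXIN1* moved by less than 2-fold.

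The proximal promoters of *APCDD1* and *LEF1* are shown because these had the smallest p of the feedback targets that rose over 2-fold and have an entry in the RefSeq promoter table of GRCh38.p14. Each runs from 250 bases before the annotated start of transcription to 50 bases after it, 5′ to 3′ on the strand of the gene. *APCDD1* lies on the plus strand at chr18:10454385-10454684 and *LEF1* on the minus strand at chr4:108166252-108166551. Where a symbol had several entries, the first was used. The *LEF1* window belongs to a start inside the gene, which spans chr4:108047548-108168932. It is therefore not the promoter at the 5′ end of *LEF1*, which was not searched.
APCDD1: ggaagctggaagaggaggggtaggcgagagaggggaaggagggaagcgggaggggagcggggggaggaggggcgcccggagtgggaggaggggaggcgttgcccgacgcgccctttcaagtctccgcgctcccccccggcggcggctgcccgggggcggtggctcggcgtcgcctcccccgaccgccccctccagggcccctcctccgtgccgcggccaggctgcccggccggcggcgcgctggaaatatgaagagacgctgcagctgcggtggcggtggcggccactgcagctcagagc
LEF1: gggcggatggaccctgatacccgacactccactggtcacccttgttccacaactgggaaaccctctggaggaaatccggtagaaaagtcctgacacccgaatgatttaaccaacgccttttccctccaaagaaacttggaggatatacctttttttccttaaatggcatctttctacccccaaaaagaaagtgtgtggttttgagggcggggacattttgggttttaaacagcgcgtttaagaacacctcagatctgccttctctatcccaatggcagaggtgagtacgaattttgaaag
A search for CTTTGA, the core of the TCF/LEF motif, on both strands found no match in either window, where a match would be in capitals. The motif was in 0 of the 4 feedback targets that were higher over 2-fold and had an entry, in 9.19% of all tested genes with an entry, in 11.8% of the 356 genes that were higher over 2-fold and in 9.19% of the 794 that were lower over 2-fold. The absence of a match says only that these letters are not in these 300 bases.

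Transcription factors that mark brain endothelium divided. Of 11 tested, 5 were higher and 4 lower in hCECs. *FOXC1*, a forkhead factor of vascular development, had 72.3, 61.4 and 70.3 CPM in hCEC libraries, against 28.5, 25.4 and 26.6 CPM in hEC libraries. It was higher without overlap, with a log2 fold change of 1.34 ± 0.09 (adjusted p = 0.00011). *SOX17*, an arterial and BBB factor, was lower, with 222, 206 and 187 CPM in hCEC libraries, against 409, 454 and 295 CPM in hEC libraries (-0.91 ± 0.15, 0.00383). *FOXQ1* and *FOXF2*, which define mature brain endothelium, were under 1 CPM in every library and were not tested.

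Solute carriers of the BBB were more often higher than lower. Of 25 tested, 13 were higher and 4 lower, with a median of 0.59. *SLC2A1*, the glucose transporter GLUT1, had 1257, 811 and 1524 CPM in hCEC libraries, against 38.97, 39.5 and 70.4 CPM in hEC libraries. Its log2 fold change was 4.59 ± 0.33 (adjusted p = 0.00014), with a gap of more than 10-fold between the lowest hCEC library and the highest hEC library. *SLCO2B1*, a carrier of organic anions, had 25.02, 21.1 and 38.9 CPM in hCEC libraries, against 1.39, 1.03 and 2.66 CPM in hEC libraries. *SLC6A8*, the creatine transporter, had 32.05, 30.9 and 32.3 CPM in hCEC libraries, against 15.3, 15.7 and 10.7 CPM in hEC libraries. *SLC3A2*, the heavy chain of amino acid transporters, had 351, 357 and 295 CPM in hCEC libraries, against 195, 227 and 157 CPM in hEC libraries. All 3 were higher without overlap (4.07 ± 0.38, 1.20 ± 0.15 and 0.79 ± 0.14), as was the metal transporter gene *SLC39A8* (0.85 ± 0.16). Of the lower carriers, *SLC1A4*, a transporter of serine and alanine, changed most (-1.17 ± 0.16, 0.00147). The taurine transporter *SLC6A6* was lower by a small amount (-0.47 ± 0.13, 0.0296) and lost its call without hCEC replicate 2 or 3 or hEC replicate 1 or 2 (0.00985 to 0.092). The count of higher carriers fell to 8 without hCEC replicate 1, and the count of lower ones was 1 to 4 over the libraries left out, with 1 without hEC replicate 1. Outside this list, the amino acid transporter gene *SLC7A8* was among the largest differences of the comparison, with 38.6, 36.7 and 54.8 CPM in hCEC libraries, against 0.465, 0.722 and 0.659 CPM in hEC libraries (6.10 ± 0.24).

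Efflux pumps were a smaller group. Of 11 ATP-binding cassette genes tested, 4 were higher and 1 lower. *ABCA1*, which exports cholesterol, had 66.1, 54.9 and 69.3 CPM in hCEC libraries, against 4.25, 3.24 and 4.81 CPM in hEC libraries. *ABCG2*, the breast cancer resistance protein of the BBB, had 276, 276 and 241 CPM in hCEC libraries, against 80.5, 102 and 143 CPM in hEC libraries. Both were higher without overlap, by 3.96 ± 0.17 and 1.29 ± 0.19, and so was *ABCG1* (1.20 ± 0.26). *ABCA2* was lower (-1.39 ± 0.30). *ABCB1*, which encodes the BBB pump P-glycoprotein, was at 0.320 to 0.725 CPM in hCECs and 0.322 to 1.23 CPM in hECs, and its difference was not detectable at this depth (-0.19 ± 0.60, adjusted p = 0.834).

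Tight junction genes did not move together. Of 17 tested, 3 were higher and 4 lower. *LSR*, the angulin of tricellular junctions, had 68.2, 60.1 and 55.4 CPM in hCEC libraries, against 4.72, 3.69 and 7.42 CPM in hEC libraries. Its log2 fold change was 3.54 ± 0.24 (0.00012). *MARVELD3*, a further junction membrane protein, was higher as well (2.46 ± 0.31). *CLDN5*, the main claudin of brain endothelium, had 787, 691 and 871 CPM in hCEC libraries, against 775, 746 and 571 CPM in hEC libraries. The groups overlapped, with 0.17 ± 0.14 (adjusted p = 0.391). *CLDN1* was lower in hCECs, with 0.671, 0.179 and 0.242 CPM in hCEC libraries, against 25.3, 7.71 and 16.2 CPM in hEC libraries (-5.45 ± 0.59). Other lower members included the adhesion molecule gene *JAM3* (-0.66 ± 0.08) and the angulin gene *ILDR2* (-2.39 ± 0.39).

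**Figure D2:**
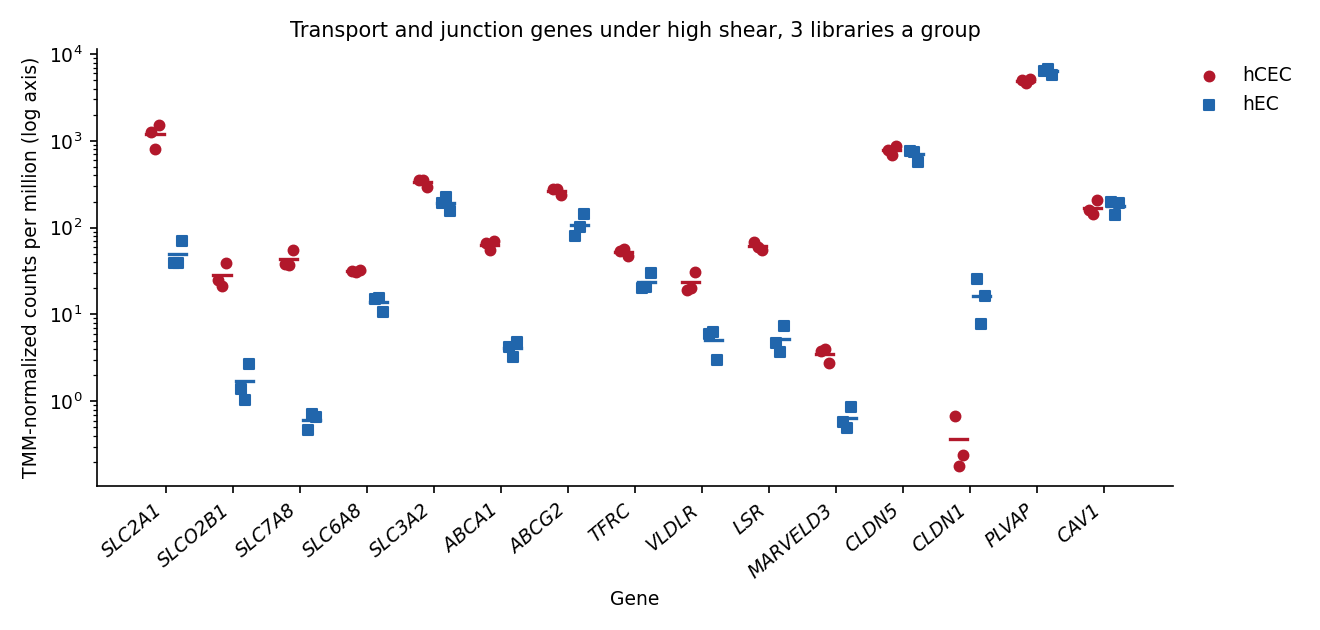
Levels of 15 transport and junction genes in the 3 hCEC libraries (red circles) and the 3 hEC libraries (blue squares) under high shear, in TMM-normalized CPM on a log axis, with the group mean as a bar. *SLC2A1*, *SLC7A8*, *ABCA1* and *LSR* are higher in every hCEC library than in any hEC library, *CLDN5* and *CAV1* overlap, and *CLDN1* is lower in hCECs.

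For vesicular transport, 5 of 12 genes of caveolae and transcytosis were higher and 5 lower, but these counts were 1 to 3 and 1 to 4 when single libraries were left out. *PLVAP*, the protein of fenestral diaphragms, had 4972, 4610.4 and 5196 CPM in hCEC libraries, against 6407, 6719.9 and 5791 CPM in hEC libraries. Without overlap, it was lower in hCECs by a small amount (-0.36 ± 0.10, adjusted p = 0.025), and it lost its call without replicate 1 or 2 of either group (0.00849 to 0.0898). *CAV1*, which encodes the coat protein of caveolae, had 159.8, 145 and 207 CPM in hCEC libraries, against 197, 139 and 190.5 CPM in hEC libraries and was not called (-0.04 ± 0.17, 0.883). *CAVIN2* was higher (2.16 ± 0.39) and *CAVIN3* lower (-0.68 ± 0.15), both coat proteins of the same vesicles. Of 16 receptors for transport across the cell, 7 were higher and 4 lower. The transferrin receptor gene *TFRC* had 53.8, 56.8 and 46.9 CPM in hCEC libraries, against 20.1, 20.5 and 30.02 CPM in hEC libraries, without overlap (1.16 ± 0.16, 0.00174). *VLDLR* (2.21 ± 0.30), *IGF2R* (0.79 ± 0.11) and *BSG* (0.58 ± 0.08), the receptors of lipoproteins, of insulin-like growth factor 2 and of cyclophilins, were higher too, whereas *LRP1* (-2.92 ± 0.45) and the insulin receptor *INSR* (-1.52 ± 0.27) were lower. Of 19 surface and secreted markers of brain endothelium tested, 9 were higher and 4 lower. Called members included *ITM2A* (1.80 ± 0.19) and *ITGA1* (1.18 ± 0.16) on the higher side and *SPOCK2* (-3.57 ± 0.31), *VWA1* (-4.03 ± 0.35) and *SLC9A3R2* (-1.20 ± 0.12) on the lower. This list shares members with others, such as *APCDD1* with the Wnt feedback targets, *ITGA1* with the integrins and *SLC9A3R2* with the flow-induced genes.

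Genes of vessel identity were counted by class, and the classes were not tested against each other. Of 23 arterial and Notch genes, 2 were higher and 6 lower, of 12 venous genes 5 were higher and 2 lower, and of 6 lymphatic genes tested 5 were higher and 0 lower (also 0 lower at an unadjusted p under 0.05, by DESeq2 and by limma with voom), with medians of -0.17, 0.26 and 1.31. *HEY1*, a Notch target of arteries, had 52.7, 48.3 and 58.5 CPM in hCEC libraries, against 226, 177 and 170.3 CPM in hEC libraries. *NR2F2*, the venous factor COUP-TFII, had 621, 629.7 and 547 CPM in hCEC libraries, against 185, 223 and 398 CPM in hEC libraries. *STAB1*, a scavenger receptor of lymphatic and sinusoidal vessels, had 1218, 1236 and 1477 CPM in hCEC libraries, against 321, 377 and 429 CPM in hEC libraries. The groups did not overlap for any of the 3 (-1.84 ± 0.13, 1.16 ± 0.26 and 1.80 ± 0.13). Among arterial genes the guidance receptor *UNC5B* was also lower (-1.22 ± 0.27), while the Notch ligand *JAG1* (0.73 ± 0.10) and *NOTCH2* (1.30 ± 0.25) were higher. The summed level of the 13 venous genes was 8691 to 9656 CPM in hCECs and 9983 to 11395 CPM in hECs, so that it was lower in hCECs although more members were called higher. The arterial list depended on hEC replicate 3, without which 11 members were lower, and on hEC replicate 2, without which 3 were. As an example chosen after its values were seen, the arterial connexin gene *GJA5* had 268, 252 and 195 CPM in hCEC libraries, against 800.4, 1418 and 106 CPM in hEC libraries, so that hEC replicate 3 lay below all hCEC libraries, and its adjusted p was 0.11 with all libraries and 0.00035 without that replicate.

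The venous and lymphatic genes included *TLL1*, a protease of the venous list, with 17.9, 24.3 and 23.7 CPM in hCEC libraries, against 0, 0.371 and 0.487 CPM in hEC libraries (6.14 ± 0.52), and *SELP*, the P-selectin of venules (2.46 ± 0.30). *PROX1*, the master factor of lymphatic identity, had 7.48, 6.15 and 10.5 CPM in hCEC libraries, against 2.72, 3.71 and 2.43 CPM in hEC libraries. It was higher without overlap (1.44 ± 0.26, 0.00512), as were the receptor *FLT4* (0.77 ± 0.09), the matrix protein *MMRN1* (1.19 ± 0.13) and the hyaluronan receptor *LYVE1* (1.18 ± 0.26). *LYVE1* missed the threshold without hEC replicate 1 (0.0501). Other lymphatic genes, *PDPN*, *CCL21*, *RELN* and *STAB2*, were too low to be tested. Of 20 tip cell and angiogenic genes, 7 were higher and 3 lower, among them *ANGPT2*, the antagonist of the TIE2 receptor, with 26.6, 18.7 and 32.02 CPM in hCEC libraries, against 4.29, 3.01 and 4.75 CPM in hEC libraries (2.69 ± 0.25), and the peptide hormone gene *ADM* (1.07 ± 0.17). The lower count of the tip cell list was 5 without hCEC replicate 3 and 6 without hEC replicate 3, and that of the venous list was 1 without replicate 1 or 2 of either group.

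Members of a list of flow-induced genes were lower more often than higher in hCECs. Of 26 tested, 3 were higher and 16 lower, with a median of -0.54, and 9 were lower without hCEC replicate 1. *KLF2*, the main flow-induced transcription factor of endothelium, had 419, 394 and 413 CPM in hCEC libraries, against 615, 696 and 665 CPM in hEC libraries. *KLF4*, its relative, had 65.1, 56.9 and 63.1 CPM in hCEC libraries, against 76.6, 94.7 and 97.2 CPM in hEC libraries. *PODXL*, a sialomucin of the luminal surface, had 720.4, 536 and 685 CPM in hCEC libraries, against 1941, 1604 and 1720.0 CPM in hEC libraries. All 3 were lower without overlap, with log2 fold changes of -0.69 ± 0.08, -0.54 ± 0.11 and -1.44 ± 0.13 and adjusted p of 0.00071, 0.00705 and 0.0003. The water channel *AQP1* was lower too (-2.63 ± 0.37). *NOS3*, which encodes the nitric oxide synthase of endothelium and was added after its values were seen, had 404, 395 and 478 CPM in hCEC libraries, against 431, 453 and 464 CPM in hEC libraries, and the groups overlapped (-0.08 ± 0.09, 0.56). The 3 higher members were the cytochromes *CYP1A1* (1.27 ± 0.12) and *CYP1B1* (1.27 ± 0.26) and the heme oxygenase gene *HMOX1* (1.33 ± 0.18), which also answer to other stimuli than flow.

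Of 17 genes repressed by laminar flow, 5 were higher and 4 lower. *CCL2*, a chemokine for monocytes, had 239, 252 and 107 CPM in hCEC libraries, against 12.3, 27.2 and 7.59 CPM in hEC libraries. *ICAM1*, an adhesion molecule for leukocytes, had 338, 324 and 281 CPM in hCEC libraries, against 58.4, 76.9 and 80.5 CPM in hEC libraries. Both were higher without overlap (3.65 ± 0.51 and 2.13 ± 0.14), as were *THBS1*, an inhibitor of angiogenesis (1.54 ± 0.25), and *BMP4* (0.78 ± 0.17). The growth factor *PDGFA* was lower (-0.92 ± 0.18).

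Genes of leukocyte adhesion and inflammation were more often higher than lower. Of 23 tested, 11 were higher and 0 lower in hCECs, with a median of 0.99, although 7 were higher without hCEC replicate 1 or without hEC replicate 1. *CCL2* and *ICAM1*, described above among the genes repressed by flow, are counted in this list too. By edgeR 2 members were lower at an unadjusted p under 0.05. The lower count was 2 with DESeq2 or library totals, 1 with the replicate block, with no filter, with a minimum of 1 CPM or without hEC replicate 3, and 0 with limma and voom. *IL1A*, the cytokine interleukin 1 alpha, had 69.97, 64.2 and 48.3 CPM in hCEC libraries, against 10.8, 11.9 and 5.64 CPM in hEC libraries. *RELB*, a subunit of NF-κB, had 46.3, 44.2 and 40.97 CPM in hCEC libraries, against 13.7, 16.7 and 18.2 CPM in hEC libraries. Both were higher without overlap (2.68 ± 0.27, 0.00044, and 1.43 ± 0.12, 0.00022), and so was *TNFAIP3*, a brake on NF-κB (0.83 ± 0.14). The chemokine *CCL8* was among the largest differences of all genes, with 30.003, 31.6 and 14.5 CPM in hCEC libraries, against 0.608, 1.01 and 0.258 CPM in hEC libraries (5.28 ± 0.48). Interferon-stimulated genes had no common direction, with 6 higher and 6 lower of 26 tested, and 2 lower without hCEC replicate 1. The guanylate-binding protein gene *GBP2* (2.49 ± 0.40) and *IFI44* (3.07 ± 0.38) were among the higher. *IFI44L* had 2.30, 3.61 and 4.04 CPM in hCEC libraries, against 0, 0 and 0 CPM in hEC libraries, which is at least 119.7-fold higher in hCECs when the hEC group is set to a floor of 3 counts over its 3 libraries.

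Proliferation genes had the largest share called of the 37 lists examined. All 32 were tested, and 29 were lower and 0 higher in hCECs, against 15.3% lower of all genes (0 were higher at an unadjusted p under 0.05, by DESeq2 or by limma with voom as well), with a median of -2.26. Of these, 27 were lower by over 2-fold, and 28 to 30 were lower when single libraries were left out. *CCNA2*, the cyclin of S and G2 phase, had 5.43, 5.04 and 4.66 CPM in hCEC libraries, against 39.7, 31.5 and 34.9 CPM in hEC libraries. *KIF20A*, a mitotic kinesin, had 4.31, 5.11 and 3.45 CPM in hCEC libraries, against 46.1, 36.7 and 38.3 CPM in hEC libraries. *PLK1*, a kinase of mitotic entry, had 6.33, 5.97 and 4.42 CPM in hCEC libraries, against 39.3, 32.7 and 33.9 CPM in hEC libraries. The groups did not overlap for any of the 3, with log2 fold changes of -2.81 ± 0.13, -3.23 ± 0.17 and -2.66 ± 0.16 and adjusted p of 2.9e-05, 4.7e-05 and 6.9e-05. *TOP2A*, the topoisomerase of dividing cells (-2.72 ± 0.20), and *MCM7*, part of the replicative helicase (-1.82 ± 0.13), were lower as well. *MKI67*, which encodes the antigen Ki-67 and was added after its values were seen, had 22.8, 25.8 and 8.43 CPM in hCEC libraries, against 185, 119.6 and 170.3 CPM in hEC libraries (-3.06 ± 0.38), with hCEC replicate 3 the lowest. The 3 members not called were *MCM3* (-0.23), *PCNA* (-0.33) and *TYMS* (-0.67), and with the replicate number as a block *PCNA* (0.0217) and *TYMS* (0.00341) were called lower. Each of the 3 also passed when 1 library was left out (0.033 for *MCM3* without hCEC replicate 2, 0.019 for *PCNA* without hEC replicate 2 and 0.015 for *TYMS* without hCEC replicate 3).

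**Figure D3:**
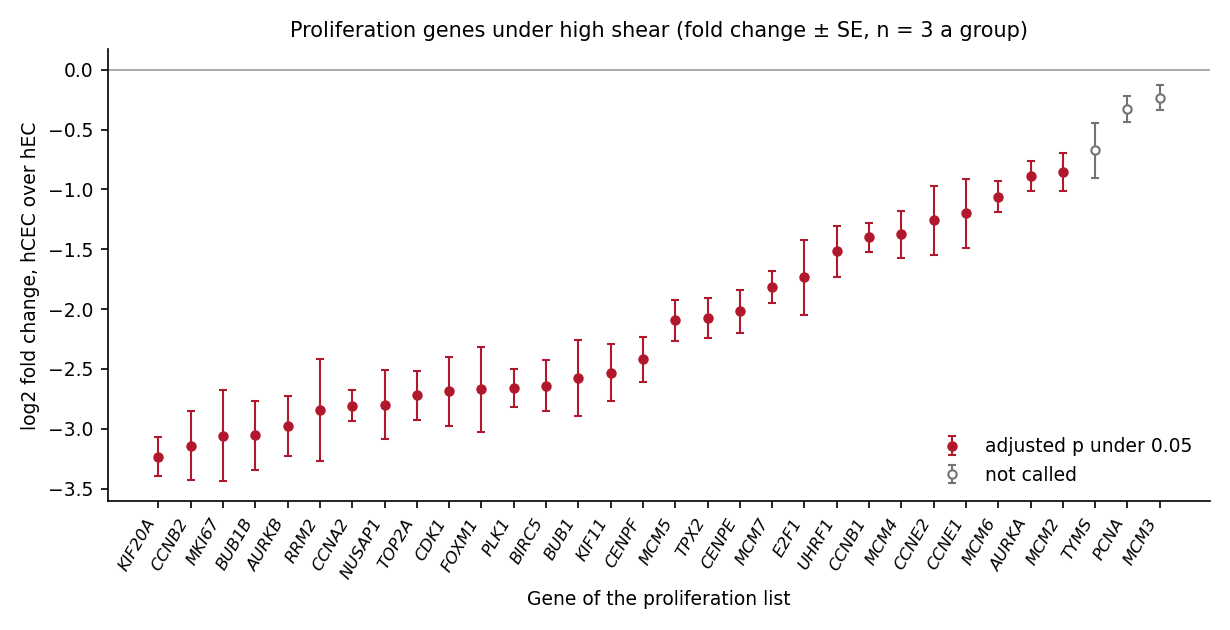
Log2 fold change of hCECs over hECs under high shear for the 32 genes of the proliferation list, ordered by size (3 libraries a group). Bars are the SE, derived from the F statistic of edgeR. Filled red points were called and 3 open points were not, and every point lies below 0.

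Among 13 inhibitors of the cell cycle, 2 were higher and 7 lower (3 lower in the fit of 12 libraries). *CDKN1A*, which encodes p21, had 721, 627 and 1101 CPM in hCEC libraries, against 254, 236 and 424 CPM in hEC libraries. *CDKN2B*, which encodes p15, had 11.4, 7.33 and 10.4 CPM in hCEC libraries, against 1.61, 4.50 and 2.32 CPM in hEC libraries. Both were higher without overlap (1.42 ± 0.27 and 1.77 ± 0.37). *CDKN1B*, which encodes p27 (-0.93 ± 0.11), and the pocket protein genes *RBL1* (-1.13 ± 0.13) and *RBL2* (-0.54 ± 0.07) were lower.

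The promoters of *CCNB2*, a mitotic cyclin (-3.14 ± 0.29), and *KIF20A* are shown because the proliferation genes moved together and their promoters are known for paired elements of the cell cycle. Both are on the plus strand of GRCh38.p14 in RefSeq, *CCNB2* at chr15:59104896-59105195 and *KIF20A* at chr5:138178862-138179161, with the same 250 bases before and 50 after the start. Capitals mark CCAAT, the box bound by NF-Y, and TTTGAA, a form of the cell cycle homology region, on either strand (ATTGG and TTCAAA on the other).
CCNB2: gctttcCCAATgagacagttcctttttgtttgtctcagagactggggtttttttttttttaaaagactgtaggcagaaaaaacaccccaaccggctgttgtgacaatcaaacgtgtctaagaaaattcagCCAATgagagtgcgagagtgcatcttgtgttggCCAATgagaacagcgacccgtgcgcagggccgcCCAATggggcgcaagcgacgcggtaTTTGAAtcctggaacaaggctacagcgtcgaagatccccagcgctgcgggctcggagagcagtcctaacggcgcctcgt
KIF20A: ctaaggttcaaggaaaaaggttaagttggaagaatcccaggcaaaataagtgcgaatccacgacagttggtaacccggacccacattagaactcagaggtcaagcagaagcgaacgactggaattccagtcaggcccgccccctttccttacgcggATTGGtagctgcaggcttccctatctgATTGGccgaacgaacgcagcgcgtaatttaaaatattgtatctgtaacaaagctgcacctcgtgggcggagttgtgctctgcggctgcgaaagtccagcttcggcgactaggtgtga
*CCNB2* held 4 CCAAT boxes and 1 TTTGAA, and *KIF20A* 2 boxes and 0 TTTGAA. Over the 22 lower proliferation genes with an entry, 18 (81.8%) held a CCAAT box, against 36.3% of the 11109 tested genes with an entry and 36.8% of the 794 that were lower over 2-fold. TTTGAA was in 9 of the 22 (40.9%), against 9.74% and 15.9%. TTTGAA can share up to 5 bases with CTTTGA, the motif searched above. Both motifs were chosen after the levels of these genes were known, and a match describes the letters of the window only.

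Growth factor signaling, matrix and integrin genes were called in both directions. Of 35 genes of BMP and TGF-β signaling, 4 were higher and 10 lower, with 3 to 4 higher and 6 to 9 lower over the libraries left out, 6 when hCEC replicate 1 or 2 or hEC replicate 2 was left out. *BMP2* had 27.9, 27.7 and 34.1 CPM in hCEC libraries, against 8.47, 6.04 and 8.68 CPM in hEC libraries and was higher without overlap (1.96 ± 0.17). *LTBP1*, which stores TGF-β in the matrix (-1.43 ± 0.10), *TGFBI*, a matrix protein induced by TGF-β (-4.15 ± 0.41), and *SMAD4*, the shared transducer (-0.43 ± 0.08), were lower. Of 37 genes of the basement membrane and matrix, 9 were higher and 13 lower, but 5 and 5 in the fit of 12 libraries. *FN1*, which encodes fibronectin, had 3761, 3459.9 and 3689.8 CPM in hCEC libraries, against 567, 872 and 636 CPM in hEC libraries. Its groups were far apart (2.39 ± 0.16, 0.00012), and the basement membrane genes *COL4A5* (0.97 ± 0.13) and *SPARC* (0.73 ± 0.10) were also higher. *COL6A1* (-1.48 ± 0.17) and *FBN1* (-0.77 ± 0.10), which form microfibrils, were lower. The fibroblast markers described above, summed over 18 genes, were lower in the same hCEC libraries, and their part in these differences was not tested. Of 18 integrin genes, 2 were higher and 8 lower, with a median of -0.73. Of the alpha chains of collagen receptors, *ITGA1* and *ITGA11* (1.68 ± 0.29) were higher and *ITGA2* (-1.23 ± 0.26) and *ITGA10* (-2.04 ± 0.35) lower. *ITGA4* (-1.95 ± 0.29) and *ITGB3* (-1.88 ± 0.30) were lower as well.

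Axon guidance genes, which also steer vessels, were 6 higher and 15 lower of 42 tested, with 7 lower without hCEC replicate 1, 9 without hCEC replicate 2, 3 higher without replicate 1 of either group, and 5 lower and 2 higher in the fit of 12 libraries. The ephrin gene *EFNA5* had 36.97, 35.1 and 33.5 CPM in hCEC libraries, against 6.54, 6.64 and 7.56 CPM in hEC libraries, one of the smallest p-values of the comparison (2.35 ± 0.11, adjusted p = 2.9e-05). The semaphorin receptor *PLXNA1* (-1.32 ± 0.12) and the ephrin *EFNB1* (-1.06 ± 0.16) were lower. Of 17 coagulation and fibrinolysis genes, 3 were higher and 5 lower, where both plasminogen activators were lower, *PLAU* with 16.4, 8.55 and 16.8 CPM in hCEC libraries, against 74.96, 78.6 and 72.1 CPM in hEC libraries (-2.43 ± 0.23) and *PLAT* with -2.86 ± 0.35. *GAS6*, a ligand of TAM receptors, was lower as well (-1.93 ± 0.15). The count of higher members was 5 without hEC replicate 2 and that of lower ones 3 without hCEC replicate 1. Of 19 vasoactive genes, 5 were higher and 4 lower. *EDNRB*, the endothelin receptor of endothelium, had 28.3, 35.6 and 54.1 CPM in hCEC libraries, against 310.1, 366 and 191 CPM in hEC libraries (-2.88 ± 0.30, 0.0005). The receptor of adrenomedullin was lower in both its parts, *CALCRL* (-0.86 ± 0.13) and *RAMP2* (-0.87 ± 0.14), while its ligand *ADM*, the angiotensin-converting enzyme *ACE* (1.44 ± 0.30) and *DDAH1*, which breaks down an inhibitor of nitric oxide synthase (0.89 ± 0.14), were higher. Glycolysis genes were 4 higher and 5 lower of 20 tested, and 2 and 1 in the fit of 12 libraries.

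Of 24 genes of cholesterol synthesis and its control, 6 were higher and 0 lower. By edgeR 1 was lower at an unadjusted p under 0.05, and DESeq2 and limma with voom called 0 lower. *STARD4*, a carrier of sterols, had 84.6, 78.03 and 71.9 CPM in hCEC libraries, against 37.4, 41.1 and 40.7 CPM in hEC libraries (0.98 ± 0.08). *DHCR7*, an enzyme late in the pathway, was higher too (0.72 ± 0.11). Of 27 *HOX* genes, which hold positional identity, 7 were higher and 1 lower, among them *HOXB9* (0.93 ± 0.17) and *HOXD8* (1.05 ± 0.18), with 4 higher and 0 lower without hEC replicate 2 and 2 lower without hCEC replicate 2 or hEC replicate 3.

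**Figure D4:**
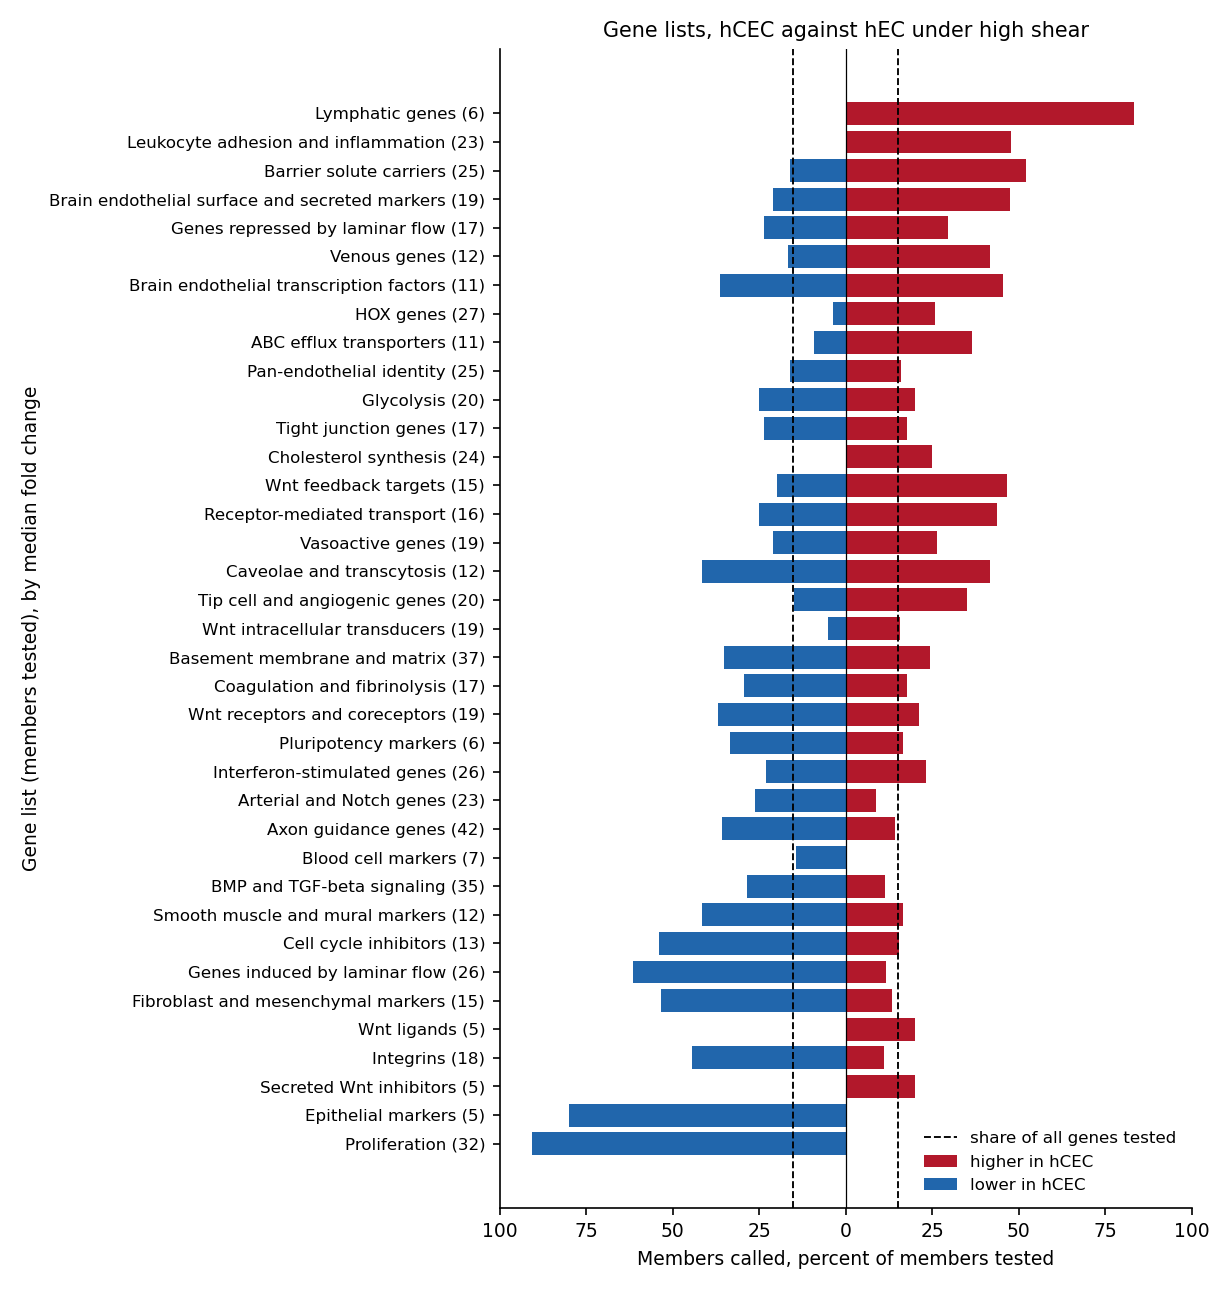
Share of the tested members of each of 37 gene lists that were called higher (red, to the right) or lower (blue, to the left) in hCECs under high shear, in percent of the members tested, whose number is in brackets, with lists ordered by median log2 fold change. Dashed lines mark the shares of all genes tested, 15.2% higher and 15.3% lower, and proliferation genes stand at the bottom with 29 of 32 lower.

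The largest differences were mostly in genes outside the Wnt lists. Named by size among called genes without overlap and with at least 10 CPM in the higher group, the highest included *PCSK2*, a prohormone convertase (8.02), *NTS*, which encodes neurotensin (7.81), *TLL1*, *SLC7A8*, *NEFH*, a neurofilament (5.60), *CCL8*, *KLHL14* (4.85), *SLC2A1*, *APCDD1*, the syndecan *SDC1* (4.46) and *CAMK2N1*, an inhibitor of CaM kinase (4.40). *NTS* had 50.6, 34.2 and 36.4 CPM in hCEC libraries, against 0.107, 0.289 and 0.0859 CPM in hEC libraries. The lowest were *SPON2*, a matrix protein (-7.34), the neurotrophin receptor *NGFR* (-6.16), *CLDN1*, *NCKAP5* (-5.43), *COL1A1*, *ELFN1* (-4.92), *SLFN11* (-4.78), the matrix protein *POSTN* (-4.41), the glypican *GPC6* (-4.28), *TGFBI*, *VWA1* and the cytokine receptor *IL27RA* (-4.002). *NGFR* had 0.927, 1.97 and 0.345 CPM in hCEC libraries, against 42.8, 109.5 and 77.2 CPM in hEC libraries. *SPON2* and *POSTN* were not called by limma with voom. The genes with the smallest p included the tetraspanin *CD82* (2.25 ± 0.10) on the higher side and *BMF*, which promotes cell death (-2.04 ± 0.08), *DPYSL3* (-3.03 ± 0.13) and *TNS1*, which links integrins to actin (-2.51 ± 0.10), on the lower.

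The same comparison at low shear, in 3 hCEC and 3 hEC libraries, was used to ask which of these differences were of another size there. This was tested as an interaction in a fit of all 12 libraries, in which hCEC low-shear replicate 2 stands apart, with 9790999 counts against 25269733 to 37380859 counts in the other low-shear libraries and with 36388 genes detected. Of 16477 genes, 26 had a higher and 14 a lower log2 fold change at high shear than at low shear (0.158% and 0.085%, 0.243% in all), and 1861 had an unadjusted p under 0.05. With the replicate number as a block, the counts were 81 and 44, and without hCEC low-shear replicate 2 they were 49 and 32. Leaving out any other single library gave 1 to 28 higher and 2 to 11 lower, and each of the 10 genes named next was called in only 2 to 6 of the 12 fits that left out 1 library. The labels and the text of the study do not give the same value for low shear, so none is given here. Differences at low shear and their SE below are from the same fit of 12 libraries.

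*KLF2* and *KLF4* were lower in hCECs at both shears, and less so at high shear. At low shear *KLF2* had 100.2, 91.9 and 89.5 CPM in hCECs and 340.4, 317 and 259 CPM in hECs (-1.70 ± 0.12), and the difference between the shears was 1.02 ± 0.17 on the log2 scale (adjusted p = 0.0385, but 0.0518 with the block). *KLF4* had 7.36, 10.7 and 5.20 CPM in hCECs and 43.4, 41.1 and 35.3 CPM in hECs at low shear (-2.41 ± 0.21), with a difference of 1.88 ± 0.28 (0.0249), although in the fit of 12 libraries its decrease at high shear was not called (0.082). For *ABCA1* (1.61 ± 0.25, 0.0296) and *CD82* (1.38 ± 0.20, 0.0249), hCECs were higher at both shears and further above hECs at high shear, and the same held for *NEFH* (3.01 ± 0.49, 0.0377). *JAG1* and *CDH11* changed direction, with log2 fold changes at low shear of -0.63 ± 0.16 and -1.54 ± 0.32. *EDNRB* had a difference between the shears of -2.43 ± 0.37 (0.0296) and was not called at low shear (-0.45 ± 0.26, 0.295), and *LTBP1*, lower in hCECs at both shears, had one of -1.001 ± 0.15 (0.0249). *STARD4* did not differ detectably at low shear (0.02 ± 0.10, 0.914). *AXIN2* (0.0506), *SLC2A1* (0.386) and *APCDD1* (0.455) did not pass this test. With the replicate block, 9 of the 10 genes passed and so did 14 other genes named here, among them *AXIN2* (1.40, adjusted p = 0.0374), *SLC2A1* (1.36, adjusted p = 0.0242), *FN1* (2.63, adjusted p = 0.0129) and *VWF* (1.39, adjusted p = 0.0108), each with a larger difference of hCECs from hECs at high shear. Over all genes tested, that block called 81 higher and 44 lower. Genes were named largely by their differences at high shear, which also enter this test. That choice favours genes with a larger difference there.

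**Figure D5:**
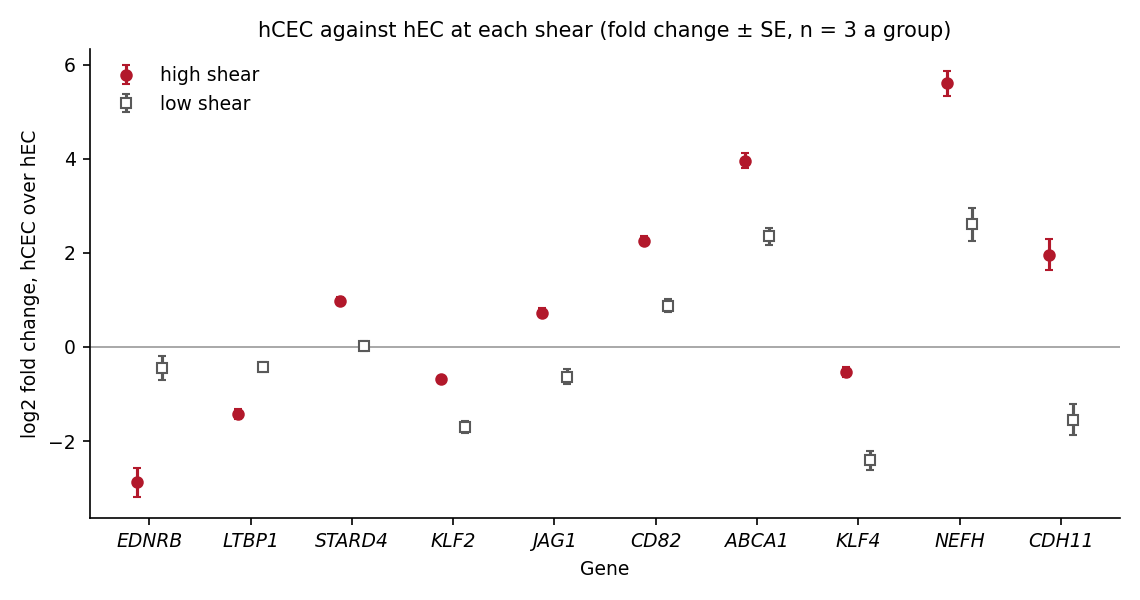
Log2 fold change of hCECs over hECs with its SE at high shear (filled red circles, from the fit of the 6 high-shear libraries) and at low shear (open squares, from the fit of 12 libraries), 3 libraries a group, for 10 named genes that passed the test of the difference between the shears. *JAG1* and *CDH11* lie above 0 at high shear and below 0 at low shear, and *KLF2* and *KLF4* are below 0 at both.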

How the data were processed

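RNA-seq of polyadenylated RNA was analysed for 3 hCEC and 3 hEC libraries under high shear, with the 6 low-shear libraries of the same groups for the interaction. The authors aligned reads with STAR 2.7.9a to hg38 and deposited whole-number counts per gene from featureCounts 2.0.3. Of 43388 genes listed, 6 had no values, among them *NEB*, *TTN*, *ABI3BP*, *DST* and *SYNE1*. Of the genes in the lists used here, 30 have further numbered entries in the deposited table (such as *POU5F1*, *MYH11*, *PTPRC* and *NKD2*), so their levels are uncertain and a level of 0 is not read as absence. The deposited table pairs gene names with counts, and groups and replicate numbers came from the labels.

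Counts were filtered with filterByExpr (minimum count 10, minimum total 15), scaled by TMM and tested by the quasi-likelihood F test of edgeR 4.0.16 (R 4.3.3) with Benjamini-Hochberg adjustment over all genes tested, two-sided, without pairing. CPM were computed here from the deposited counts. The interaction was fitted on 12 libraries. Steps were tested on simulated data. Promoters were matched by symbol, and 11109 of the 15184 tested genes had an entry. The members and the gene lists were chosen with earlier results of these data known. Some genes are members of more than 1 list, so the counts of different lists are not independent. Genes were named by size (12 a direction, over 10 CPM), by p (5 a direction) and by list (up to 6 members by smallest p, and all Wnt feedback targets), with a set of barrier and flow genes whatever their p, and some genes that meet the rule are not reported here. *CCNB2*, *CYP1B1*, *GJA5*, *ITGA2*, *MCM3*, *MKI67*, *NOS3*, *PCNA* and *TYMS*, the genes named only as too low to test, and the motifs CCAAT and TTTGAA were chosen after values were seen. Alternatives were RLE scaling, library totals, no filter, a minimum of 1 CPM in 3 libraries, DESeq2 1.42.0, limma 3.58.1 with voom, a replicate block, a fit of 12 libraries and leaving out each library. Deviations from the group means correlated across genes between libraries of the same number (r = 0.14, 0.20 and 0.28) and at most 0.04 between others. Deviations within a group of 3 sum to 0, so a positive r for 1 match lowers the others. This check therefore cannot establish that the numbers pair the libraries across models, and no label states it. The total counts per library limit precision mainly for genes under about 1 CPM.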

Additional observations from a re-analysis of the deposited data

Results flagged for a closer look

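For 10 named genes the difference between hCECs and hECs at high shear was not the same as at low shear, by the interaction test of edgeR over 12 libraries. The difference at high shear minus that at low shear was, on the log2 scale, 1.61 ± 0.25 for *ABCA1*, 1.36 ± 0.23 for *JAG1*, 1.02 ± 0.17 for *KLF2*, 1.88 ± 0.28 for *KLF4* and 0.96 ± 0.14 for *STARD4*. It was 3.51 ± 0.46 for *CDH11*, 3.01 ± 0.49 for *NEFH* and 1.38 ± 0.20 for *CD82*, and -1.001 ± 0.15 for *LTBP1* and -2.43 ± 0.37 for *EDNRB*. The adjusted p of these 10 genes lay between 0.025 and 0.040, and it lay between 0.0041 and 0.032 without hCEC low-shear replicate 2, the small library in which many more genes were detected. Each of the 10 kept its call in only 2 to 6 of the 12 fits that left out 1 library.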

How the results depend on the processing

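Of 160 named genes called, 151 kept the call without each library in turn, 0 changed direction under the alternatives run, and 15 lost the call in the fit of 12 libraries, 3 with limma and voom, 1 with DESeq2 and 1 with library totals (*TCF7*). The 15 included *TCF7*, *FZD7*, *GSK3A*, *GSK3B*, *ENG*, *ABCA2*, *PLVAP* and *CAVIN3*. The rest of the 15 were *LRP1*, *BSG*, *NOTCH2*, *SPARC*, *KLF4*, *ITGB3* and *TNFAIP3*. *NANOG* and *KRT18* are not part of the counts of named genes given here. The fit of 12 libraries, whose spread includes the low-shear libraries, called 1127 genes higher, 1151 lower and 545 lower over 2-fold, and without 1 library the counts were 1494 to 2128 higher, 1597 to 2200 lower, 417 to 568 higher over 2-fold and 921 to 1157 lower over 2-fold, the fewest higher without hCEC replicate 1. The interaction called 141 higher and 126 lower with DESeq2, 15 higher with library totals, 60 and 33 with no filter, 81 and 44 with the replicate block, and 284 and 158 with the block and without hCEC low-shear replicate 2, a setting chosen after seeing the data. Without 1 library it called 1 to 49 higher and 2 to 32 lower. The cause of these moves was not tested. With the replicate block, 2610 genes were higher and 2579 lower at high shear, 4454 of the 4625 calls were shared, and among the named genes the block added *CCND1*, *PCNA* and *TYMS* and removed 0. In the interaction it removed *KLF2* and added 14 named genes to the 9 called with both. Among the lists, the block gave 12 *HOX* genes higher in place of 7, 5 transducers higher in place of 3, 4 integrins higher in place of 2, 4 arterial genes higher in place of 2, 3 genes of caveolae lower in place of 5 and 5 tip cell genes lower in place of 3. The fit of 12 libraries gave 26 proliferation genes lower in place of 29, 8 flow-induced genes lower in place of 16, 7 inflammation genes higher in place of 11, 4 Wnt receptors lower in place of 7, 5 matrix genes higher in place of 9 and 5 lower in place of 13, 5 axon guidance genes lower in place of 15, 1 glycolysis gene lower in place of 5 and 3 cell cycle inhibitors lower in place of 7. In all, it moved 34 of the list counts by over 1.5 times. With 3 libraries a group, small changes and genes near 1 CPM are the least certain.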
